A study of Homo sapiens with 12 samples.

Results

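The NRF2 antioxidant pathway was followed through 9 genes of the polysome sequencing table, out of 24559 gene symbols in all. They were named by symbol rather than by their behaviour in these libraries: the transcription factor NFE2L2, its inhibitor KEAP1, and the target genes NQO1, HMOX1, FTL, GCLC, GCLM, TXNRD1 and SRXN1. RNA had been isolated from the polysome fractions of 3 triple-negative breast cancer cell lines, with 2 libraries in each of 6 groups. MDA-MB-231 and SUM159 cells carried either a control vector (labelled EV CTRL, here EV) or a TRMT112 knockdown (KD), and BT549 cells carried EV or a TRMT112 overexpression construct (OE). All groups were otherwise labelled as receiving no treatment, and the study's methods describe KD lines made with a GIPZ shRNA vector against a non-silencing GIPZ control under puromycin, and OE lines made with an open reading frame clone against an empty pReceiver-M02 vector under G418. KD and OE were therefore never made in the same line, and direction of TRMT112 change, cell line, vector and drug cannot be told apart across them. SUM159 medium also contained insulin and hydrocortisone, and BT549 cells grew in another basal medium with more serum. Medium can thus not be told apart from line either.

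NRF2, the protein made from NFE2L2, is a transcription factor that KEAP1 normally hands to a CUL3 ubiquitin ligase for degradation. Oxidants and electrophiles modify KEAP1 cysteines, and NRF2 then accumulates, pairs with small MAF proteins and binds antioxidant response elements (ARE) in the genes of glutathione synthesis, thioredoxin recycling, quinone and haem breakdown, iron storage and NADPH supply. BACH1 occupies many of the same elements as a repressor, most familiarly at HMOX1. TRMT112 is a partner protein that stabilises several methyltransferases, including enzymes that modify ribosomal RNA and tRNA. NRF2 activity is set largely at the level of protein stability, which polysome RNA does not measure.

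All libraries were of similar depth, from 22954226 to 27434677 expected counts. TRMT112 itself matched the labels, since its normalized count fell from 4147 and 3938 to 1764 and 1682 in MDA-MB-231 KD, fell from 6332 and 6566 to 3909 and 3699 in SUM159 KD, and rose from 3076 and 3087 to 4286 and 4319 in BT549 OE. VIM, a mesenchymal marker, was abundant in every library (16820.5 to 47474 normalized counts). The epithelial keratins KRT8 and KRT18 were between 4375 and 9858 in MDA-MB-231 and SUM159 and at most 17.7 in BT549. EPCAM, a further epithelial marker, differed from them, with 52.5 to 72.1 in MDA-MB-231, at most 4.0 in SUM159 and at most 1.1 in BT549. The receptor mRNA PGR was at 0 in all but the BT549 EV libraries, where it reached 10.0, while ERBB2 lay between 1385 and 3420.5. The leukocyte marker PTPRC was at most 13.8, the hepatocyte marker ALB at most 4.4, and the endothelial marker PECAM1 was 88.7 and 102.9 in SUM159 KD and at most 25.1 elsewhere. ESR1 and CD3E were sought, but neither was among the gene symbols matched here, so no level is given. Every transcript in the deposited table had a count above 0 in BT549. A gene without counts in BT549 could therefore not be followed in the other lines. VIM fell from 47331 and 47474 to 17451 and 16820.5 in BT549 OE, and its part in the results for that line was not tested.

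The DNA letters through which NRF2 is known to act are shown first. Most of these genes were named as NRF2 targets, so a match is not independent of how they were named. The ARE core was searched as TGACNNNGC on both strands, from 1000 bases before to 300 bases after the first base of each gene's most abundant transcript in these libraries (GRCh38, GENCODE 44). A match was found at 6 of the 9 genes, against 41.66% of 16537 tested genes. The full TGACTCAGC form was found at NQO1 alone among the 9, against 1.46% of the tested genes. For 5 of these genes 1 match each is printed on the strand of the gene, with the core in capitals and its distance counted from the first base of the transcript to the first capital. A core on the opposite strand reads GCNNNGTCA.
NQO1, 455 bases before the start, chr16:69726997-69727025, minus strand: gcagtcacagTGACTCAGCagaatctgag
GCLM, 34 bases before the start, chr1:93909446-93909474, minus strand: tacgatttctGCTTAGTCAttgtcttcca
GCLC, 870 bases before the start, chr6:53545953-53545981, minus strand: acaggtcattGCTCTGTCAacacatattt
TXNRD1, 248 bases after the start, chr12:104286920-104286948, plus strand: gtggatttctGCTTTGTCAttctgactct
KEAP1, 94 bases after the start of KEAP1-202, chr19:10502784-10502812, minus strand: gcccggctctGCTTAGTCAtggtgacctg
FTL also held 1 match 254 bases inside its transcript, and KEAP1 held another 71 bases after its start. No match lay in the windows of NFE2L2, HMOX1 and SRXN1, which says only that these letters were not in these windows. A match is a description of letters and was not tested for binding.

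FTL, the ferritin light chain, carries a second regulatory sequence, the iron responsive element that iron regulatory proteins bind in the 5′ leader to block translation when iron is scarce. The same loop, CAGTG in capitals, was found in FTL and in FTH1, the ferritin heavy chain, and both are shown because the ratio of these mRNAs is described later.
FTL, loop from base 39 of the transcript, chr19:48965335-48965363, plus strand: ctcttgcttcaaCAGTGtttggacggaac
FTH1, loop from base 45 of the transcript, chr11:61967574-61967602, minus strand: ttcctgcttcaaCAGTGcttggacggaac

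The first question was how these mRNAs responded to TRMT112 in each line. NFE2L2 was lower in all 3 comparisons, whereas its targets did not follow it as a group. Of the 7 targets, 6 were higher and 1 lower in MDA-MB-231 KD, 4 were higher and 3 lower in SUM159 KD, and 2 were higher and 4 lower in BT549 OE, with 1 that did not pass the test. Counts over all 9 genes were 6 higher and 3 lower in MDA-MB-231 KD, where 21.2% of the 16538 genes tested were higher and 16.5% lower. In SUM159 KD 4 were higher and 4 lower, against 28.6% and 31.4% of all genes (60.1% in either direction), and in BT549 OE 3 were higher and 5 lower, against 35.6% and 35% of all genes. All p-values below are from edgeR's quasi-likelihood test with Benjamini-Hochberg adjustment over all genes tested, and a gene passed at an adjusted p under 0.05. The labels do not say whether the 2 libraries of a group came from separate cultures, so these p-values measure only the spread between the libraries. No total RNA was sequenced beside the polysomes, so the amount of an mRNA and its loading onto ribosomes cannot be told apart.

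**Figure D1:**
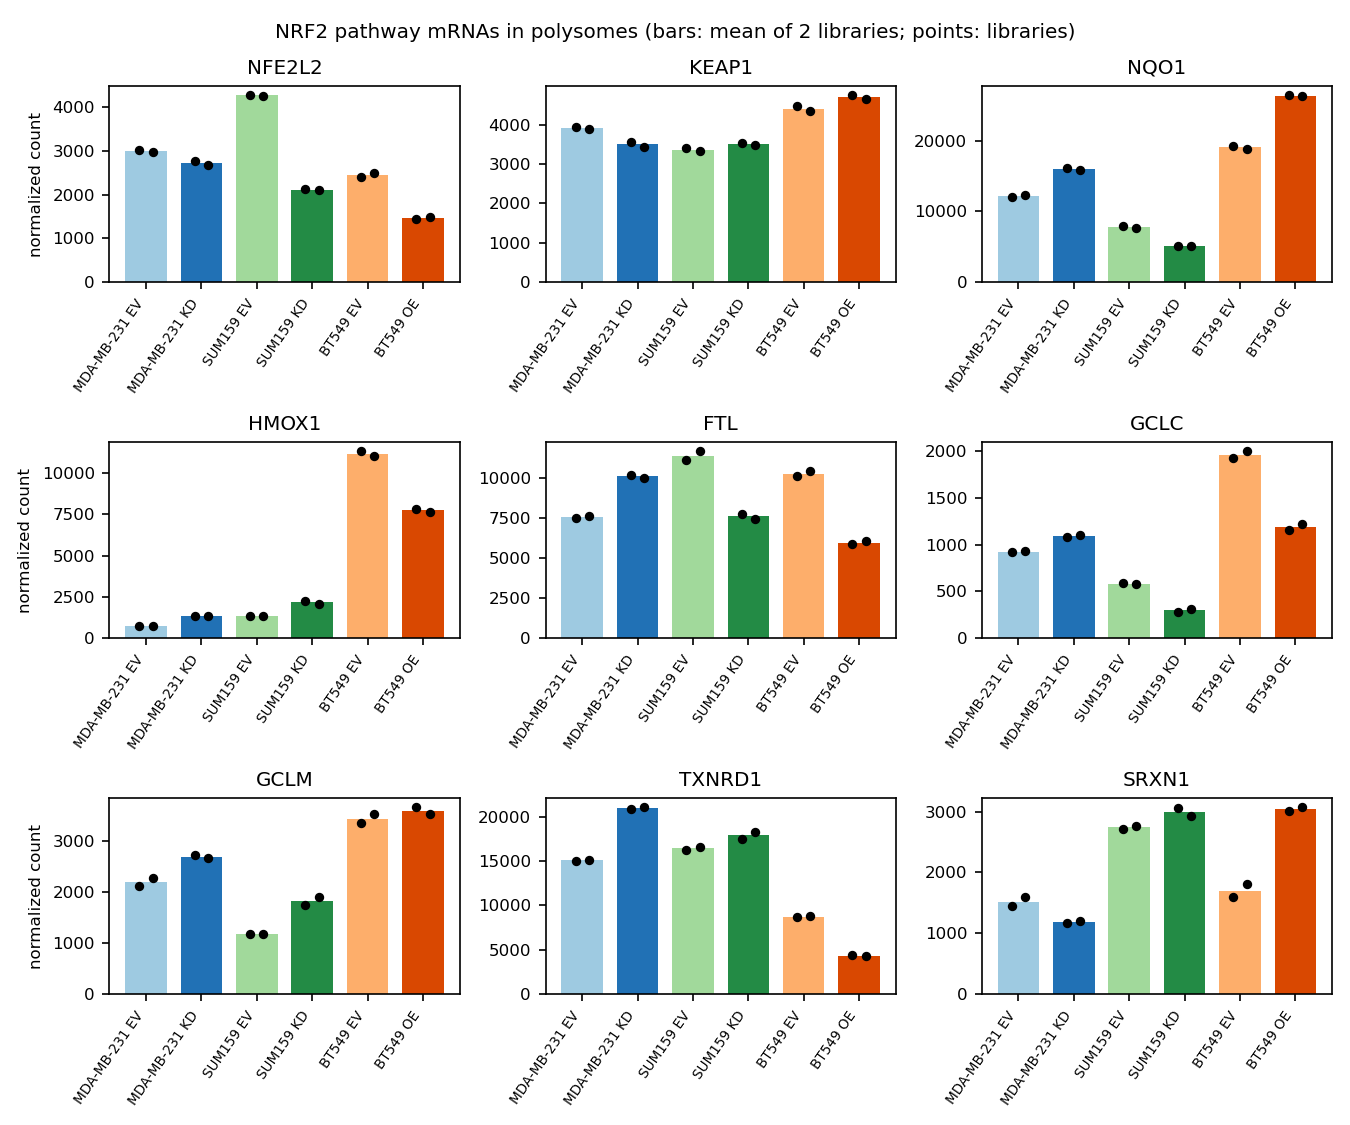
Normalized count (vertical axis, linear and from 0) of each of the 9 genes in the 6 groups. Bars are means of 2 libraries and points are the libraries. NFE2L2 is highest in SUM159 EV (4274 and 4268), and HMOX1 is higher in all BT549 libraries than in any other.

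NFE2L2 (chr2:177218667-177392756, minus strand) fell most in SUM159. Its normalized counts there were 4274 and 4268 in EV and 2121 and 2101 in KD, a log2 change of -1.02 ± 0.04 (SE, adjusted p = 1.57e-16). In BT549 they were 2396 and 2490.3 in EV and 1452 and 1495 in OE, a change of -0.73 ± 0.04 (adjusted p = 3.35e-13). The groups were well apart in both lines. In MDA-MB-231 the counts were 3019 and 2966 in EV and 2781 and 2669.7 in KD, a small change of -0.13 ± 0.04 (adjusted p = 0.00715). The groups did not overlap, but the call was lost without EV replicate 1 (adjusted p = 0.0582) or KD replicate 2 (adjusted p = 0.118). Of all genes tested, 2.94% were lower in all 3 comparisons, and NFE2L2 was the 1 gene of the 9 that was.

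KEAP1 (chr19:10486125-10503558, minus strand), the cysteine-rich sensor that restrains NRF2, moved little. Its normalized counts were 3930.4 and 3888 in MDA-MB-231 EV and 3568 and 3425 in KD, a log2 change of -0.16 ± 0.03 (adjusted p = 0.000752). SUM159 gave 3394 and 3319.5 in EV and 3542 and 3480.3 in KD, a change of 0.06 that did not pass (adjusted p = 0.127, 95% confidence interval -0.01 to 0.14). BT549 gave 4459 and 4338 in EV and 4741 and 4652 in OE, a change of 0.09 ± 0.03 (adjusted p = 0.019). The groups did not overlap in any line, and every change was within 0.17 log2 units of 0. In length-corrected TPM, KEAP1 in SUM159 was instead slightly lower in KD (94.95 and 93.03) than in EV (99.28 and 95.17). The MDA-MB-231 call was lost when only the transcript with the highest mean count was used (-0.17, adjusted p = 0.0646). The BT549 call was lost without EV replicate 2 (adjusted p = 0.186) or OE replicate 1 (adjusted p = 0.12), and the SUM159 change passed with DESeq2 (0.12, adjusted p = 0.00837).

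NQO1 (chr16:69706996-69726668, minus strand), the quinone reductase most often used as a readout of NRF2, rose in one KD line and fell in the other. Its normalized counts were 12087 and 12307 in MDA-MB-231 EV and 16063 and 15825 in KD, a log2 change of 0.39 ± 0.03 (adjusted p = 6.4e-11). In SUM159 they were 7856 and 7588 in EV and 5123 and 5152 in KD, a change of -0.59 ± 0.03 (adjusted p = 1.44e-14). In BT549 they were 19189.7 and 18855 in EV and 26384 and 26296 in OE, a change of 0.47 ± 0.03 (adjusted p = 7.78e-14). No pair of groups overlapped. NQO1 was thus higher while NFE2L2 was lower in both MDA-MB-231 KD and BT549 OE.

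HMOX1 (chr22:35380361-35394214, plus strand), the inducible haem oxygenase, rose in both KD lines and fell with OE. In MDA-MB-231 its normalized counts were 745 and 708 in EV and 1339.7 and 1332 in KD, a log2 change of 0.88 ± 0.05 (adjusted p = 4.56e-12). In SUM159 they were 1332 and 1344 in EV and 2247 and 2087 in KD, a change of 0.69 ± 0.04 (adjusted p = 2.18e-12). In BT549 they were 11320.5 and 11045 in EV and 7816 and 7656 in OE, a change of -0.53 ± 0.03 (adjusted p = 1.21e-12). HMOX1 and TXNRD1 were the 2 genes of the 9 that were higher in both KD lines and lower with OE. This pattern was found in 3.83% of all genes tested. For TXNRD1 the call in SUM159 KD depended on the processing, as given below.

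FTL (chr19:48965309-48966879, plus strand) rose in MDA-MB-231 KD and fell in the other comparisons. Its normalized counts were 7480 and 7612 in MDA-MB-231 EV and 10175 and 9993 in KD, a log2 change of 0.42 ± 0.03 (adjusted p = 3.88e-10). In SUM159 they were 11069.7 and 11630.4 in EV and 7723 and 7439 in KD, a change of -0.58 ± 0.03 (adjusted p = 1.24e-13). In BT549 they were 10078.8 and 10394 in EV and 5864 and 6033 in OE, a change of -0.78 ± 0.03 (adjusted p = 4.1e-16). The groups were apart in every line. The processed copies FTLP3 and FTLP12 held at most 2 counts in any library.

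GCLC and GCLM encode the catalytic and the modifier subunit of glutamate-cysteine ligase, which makes the first step of glutathione synthesis, and they parted from each other in SUM159 and BT549. GCLC (chr6:53497341-53616970, minus strand) had normalized counts of 584 and 581 in SUM159 EV and 277 and 315 in KD, a log2 change of -0.97 ± 0.08 (adjusted p = 1.17e-10). GCLM (chr1:93885199-93909456, minus strand) had 1186 and 1170.2 in SUM159 EV and 1754 and 1905 in KD, a change of 0.64 ± 0.05 (adjusted p = 2.52e-10). The subunits thus moved in opposite directions in SUM159 KD. In BT549, GCLC had 1929 and 1999 in EV and 1158 and 1221 in OE, a change of -0.72 ± 0.06 (adjusted p = 4.36e-11). GCLM there had 3350.5 and 3541 in EV and 3667 and 3527 in OE, groups that overlapped, with a change of 0.06 that did not pass (adjusted p = 0.224, 95% confidence interval -0.03 to 0.15). In MDA-MB-231 both subunits rose, GCLC from 920.0 and 932 to 1084 and 1102 (0.24 ± 0.06, adjusted p = 0.0023) and GCLM from 2122 and 2280.2 to 2722 and 2663 (0.29 ± 0.05, adjusted p = 2.49e-05). The GCLC call in MDA-MB-231 was lost when only the transcript with the highest mean count was used (0.21, adjusted p = 0.3) and with library size as the only scaling (0.15, adjusted p = 0.0555).

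Per transcript length, in length-corrected TPM computed here, the ratio of GCLC to GCLM was nearly the same in the EV libraries of MDA-MB-231 (0.62 and 0.615) and SUM159 (0.648 and 0.643). It was 0.603 and 0.611 in MDA-MB-231 KD, but 0.228 and 0.219 in SUM159 KD. BT549 went from 0.846 and 0.784 in EV to 0.444 and 0.503 in OE. The ratio of FTL to FTH1 behaved differently: it was 1.096 and 1.203 in MDA-MB-231 EV and 1.161 and 1.153 in KD, where the groups overlapped. It was 0.633 and 0.654 in SUM159 EV and 0.532 and 0.529 in KD. BT549 showed the widest step, from 0.921 and 0.943 in EV to 0.45 and 0.478 in OE. These ratios are given without a test. They concern mRNA in polysomes and not subunits of protein.

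**Figure D2:**
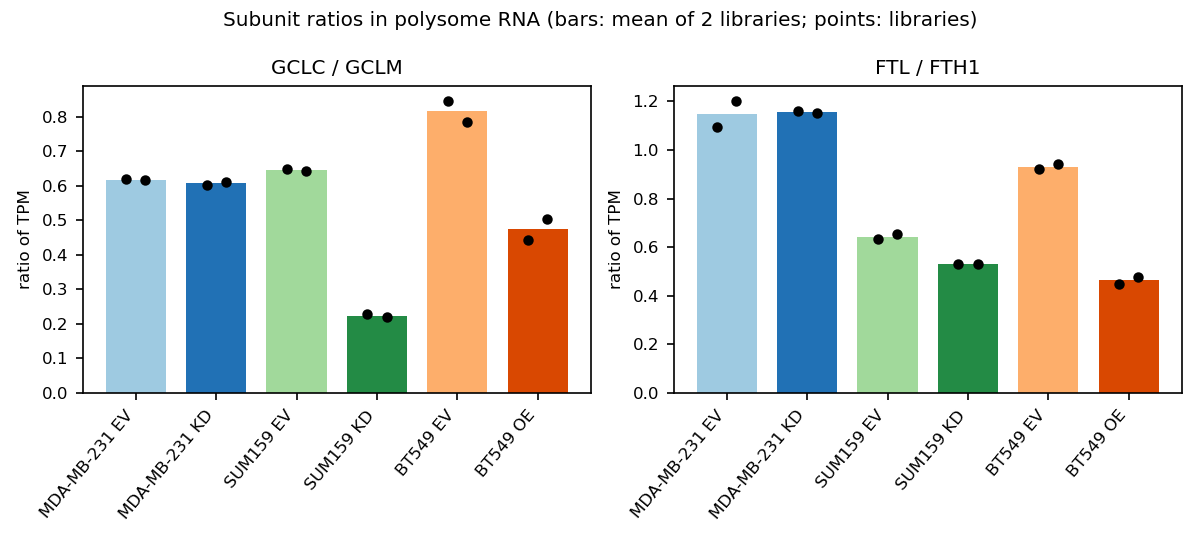
Ratio of TPM (vertical axis, from 0) of GCLC to GCLM and of FTL to FTH1 in the 6 groups. Bars are means of 2 libraries and points are the libraries. The GCLC to GCLM ratio is lowest in SUM159 KD (0.228 and 0.219), and the FTL to FTH1 ratio is lowest in BT549 OE (0.45 and 0.478).

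TXNRD1 (chr12:104215779-104350307, plus strand), the cytosolic thioredoxin reductase, had normalized counts of 15008 and 15172 in MDA-MB-231 EV and 20859.6 and 21072 in KD, a log2 change of 0.47 ± 0.03 (adjusted p = 5.69e-12). In SUM159 it had 16251 and 16606 in EV and 17519 and 18335 in KD, a smaller change of 0.13 ± 0.03 (adjusted p = 0.000416). In BT549 it fell from 8694 and 8759.9 in EV to 4436 and 4250.4 in OE, a change of -1.01 ± 0.03 (adjusted p = 1.48e-18). In normalized counts the groups did not overlap in any line. In TPM they overlapped in SUM159 (373.01 and 386.23 in EV, 381.71 and 401.75 in KD). The SUM159 change also depended on summing the transcripts. TXNRD1-201, the transcript with the highest mean over all 12 libraries, fell there (-0.20, adjusted p = 0.0464), while TXNRD1-210, the larger of the pair in SUM159 KD, went from a mean of 6733 normalized counts in EV to 9071 in KD.

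SRXN1 (chr20:646615-653200, minus strand), the sulfiredoxin that repairs overoxidised peroxiredoxins, rose most with OE. In BT549 it had normalized counts of 1595 and 1812 in EV and 3009.9 and 3072 in OE, a log2 change of 0.84 ± 0.05 (adjusted p = 1.79e-12). In MDA-MB-231 it fell from 1441 and 1603 in EV to 1166 and 1205 in KD, a change of -0.36 ± 0.06 (adjusted p = 3.18e-05). In TPM the SUM159 groups overlapped (81.2 and 81.66 in EV, 82.93 and 80.31 in KD). Normalized counts there were 2717 and 2766 in EV and 3058 and 2924 in KD, a change of 0.12 ± 0.05 (adjusted p = 0.0366). That last call was lost without EV replicate 1 (adjusted p = 0.171), EV replicate 2 (0.0923) or KD replicate 1 (0.22), with library size as the only scaling (0.143) or with 1 transcript per gene (0.0985).

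**Figure D3:**
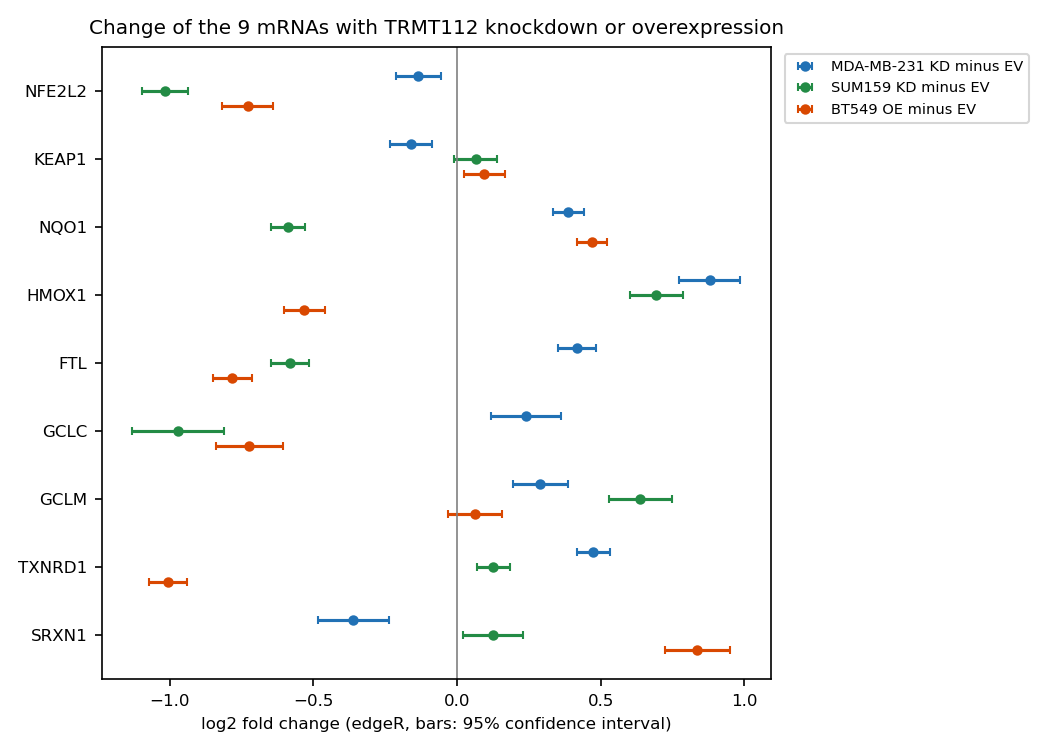
Log2 fold change (horizontal axis) of the 9 genes in MDA-MB-231 KD, SUM159 KD and BT549 OE, each against EV of the same line, with 95% confidence intervals from edgeR. NFE2L2 lies left of 0 in all 3 comparisons, while NQO1, FTL and GCLC lie on opposite sides of 0 in MDA-MB-231 KD and SUM159 KD.

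The 2 KD lines were then compared directly, as the difference of the KD effects (MDA-MB-231 minus SUM159) in the same fit. All 9 genes differed, 6 with a positive and 3 with a negative difference, where 27.7% and 23.2% of all genes tested had such differences (50.9% in either direction). The widest was in GCLC (1.21 ± 0.10 log2 units, adjusted p = 2.77e-10), followed by FTL (1.00 ± 0.04, adjusted p = 1e-14), NQO1 (0.97 ± 0.04, adjusted p = 1.2e-15) and NFE2L2 (0.88 ± 0.05, adjusted p = 2.81e-12). HMOX1 had the narrowest difference (0.19 ± 0.07, adjusted p = 0.0256). That call was lost under 10 of 17 alternatives. Among them were DESeq2 (0.16, adjusted p = 0.0771) and the fits without MDA-MB-231 EV replicate 2 (adjusted p = 0.116), MDA-MB-231 KD replicate 1 (0.056), SUM159 EV replicate 2 (0.0597) or SUM159 KD replicate 2 (0.133). Of the 9 genes, 4 changed in the same direction in both KD lines (NFE2L2 lower, and HMOX1, GCLM and TXNRD1 higher) and 4 in opposite directions (NQO1, FTL, GCLC and SRXN1). Over all genes tested, 16.3% passed in the same direction in both lines and 12.2% in opposite directions. Several calls among the 9 depended on the processing. With only the most abundant transcript, SRXN1 in SUM159 KD no longer passed (adjusted p = 0.0985) and TXNRD1 there turned to -0.20 (adjusted p = 0.0464). In TPM, SRXN1 and TXNRD1 overlapped between EV and KD in SUM159. The calls of NFE2L2 and GCLC in MDA-MB-231 KD were also lost under alternatives given above.

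Levels in the EV groups differed widely between the lines. By the study's methods, BT549 cells also had another control vector, selection drug, basal medium and serum share than MDA-MB-231 and SUM159 cells. Cell line and these conditions cannot be told apart in the EV comparisons. All 9 genes passed in each comparison of EV groups, as did 75.7%, 79.5% and 78.4% of all genes, so the counts say little about these genes. Against MDA-MB-231, 5 of the 9 were higher and 4 lower in SUM159 (39.2% and 36.4% of all genes), and 7 were higher and 2 lower in BT549 (39.1% and 40.4% of all genes). Against SUM159, 5 were higher and 4 lower in BT549 (37.7% and 40.7% of all genes). HMOX1 had the widest difference. BT549 EV was 3.94 ± 0.04 log2 units above MDA-MB-231 EV (15.4-fold, adjusted p = 1.8e-27) and 3.06 ± 0.04 above SUM159 EV (8.36-fold, adjusted p = 5.56e-26). GCLC was 1.08 ± 0.06 and 1.75 ± 0.06 higher in BT549 than in the same 2 lines (adjusted p = 1.39e-14 and 5.62e-18). TXNRD1 was lowest in BT549, by -0.79 ± 0.03 and -0.91 ± 0.03 (adjusted p = 1.62e-17 and 1.13e-18). SRXN1 was not separable between BT549 EV and MDA-MB-231 EV, whose libraries overlapped. Its difference of 0.16 (adjusted p = 0.0133) was lost without MDA-MB-231 EV replicate 1 (adjusted p = 0.236) or BT549 EV replicate 2 (adjusted p = 0.324), and it turned to -0.15 with library size as the only scaling. KEAP1 differed by 0.17 between the same groups (adjusted p = 0.000112), and turned to -0.14 under that scaling, which moved the median of all genes by -0.31. The 3 comparisons share EV libraries, so their values are only set side by side.

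Compared per length, NQO1, FTL and TXNRD1 were the most abundant of the 9 mRNAs in MDA-MB-231 and SUM159, and GCLC the least. In MDA-MB-231 EV, NQO1 stood at 803 ± 34.5 TPM (SD, n = 2), FTL at 745 ± 9.79 and TXNRD1 at 408 ± 5.11, while GCLC stood at 26.3 ± 1.40. In SUM159 EV, FTL led with 978 ± 25.9 TPM, ahead of NQO1 (450.1 ± 12.1) and TXNRD1 (379.6 ± 9.34), and GCLC stood at 14.3 ± 0.22. BT549 EV differed in that HMOX1 (481 ± 4.93 TPM) came behind NQO1 (969 ± 18.3) and FTL (771 ± 21.0), with TXNRD1 at 184 ± 1.83. There GCLC (44.8 ± 0.25 TPM) and SRXN1 (44.2 ± 4.20) did not differ beyond their spread. NFE2L2 moved from the 4th place of 9 in SUM159 EV (130.3 ± 1.77 TPM) to the 7th in SUM159 KD (60.04 ± 0.26). In BT549 it moved from 6th in EV (64.6 ± 1.03 TPM) to 8th in OE (37.4 ± 1.05).

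Expected counts of single transcripts showed how the sums were made up. FTL and SRXN1 were each counted on 1 transcript, and HMOX1-201 held 93.6% to 95.8% of HMOX1 in the group means. KEAP1 was divided between KEAP1-202 and KEAP1-201, which begin at different first exons (chromosome 19, positions 10502896 and 10503356) and share 1 coding start and a coding length of 1872 bases. KEAP1-201 held 37.9% and 42.3% of KEAP1 in BT549 EV and 24.3% in both OE libraries. It held 23.6% to 24.9% in all 4 MDA-MB-231 libraries and 8.9% to 17.8% in SUM159, where KD and EV overlapped. TXNRD1 was divided mainly between TXNRD1-201 and TXNRD1-210, whose coding sequence is longer (1653 against 1497 bases). In SUM159, TXNRD1-201 went from 44.9% and 43.5% in EV to 35.8% and 34.1% in KD, and TXNRD1-210 from 41.8% and 40.2% to 50.0% and 51.2%. In BT549, TXNRD1-210 held 46.8% and 47.2% in EV and 41.0% and 52.0% in OE, which overlapped. NFE2L2-202 begins downstream of NFE2L2-201 and has a shorter coding sequence (1767 against 1815 bases). Its share was 5.4% and 6.1% in MDA-MB-231 EV and 8.5% and 9.1% in KD, and 11.9% and 14.7% in BT549 EV and 15.9% and 21.9% in OE. SUM159 showed 3.3% and 4.0% in EV and 5.1% and 8.2% in KD. Transcripts that share most of their bases are told apart by few reads, so the shares are given as a description with no test.

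**Figure D4:**
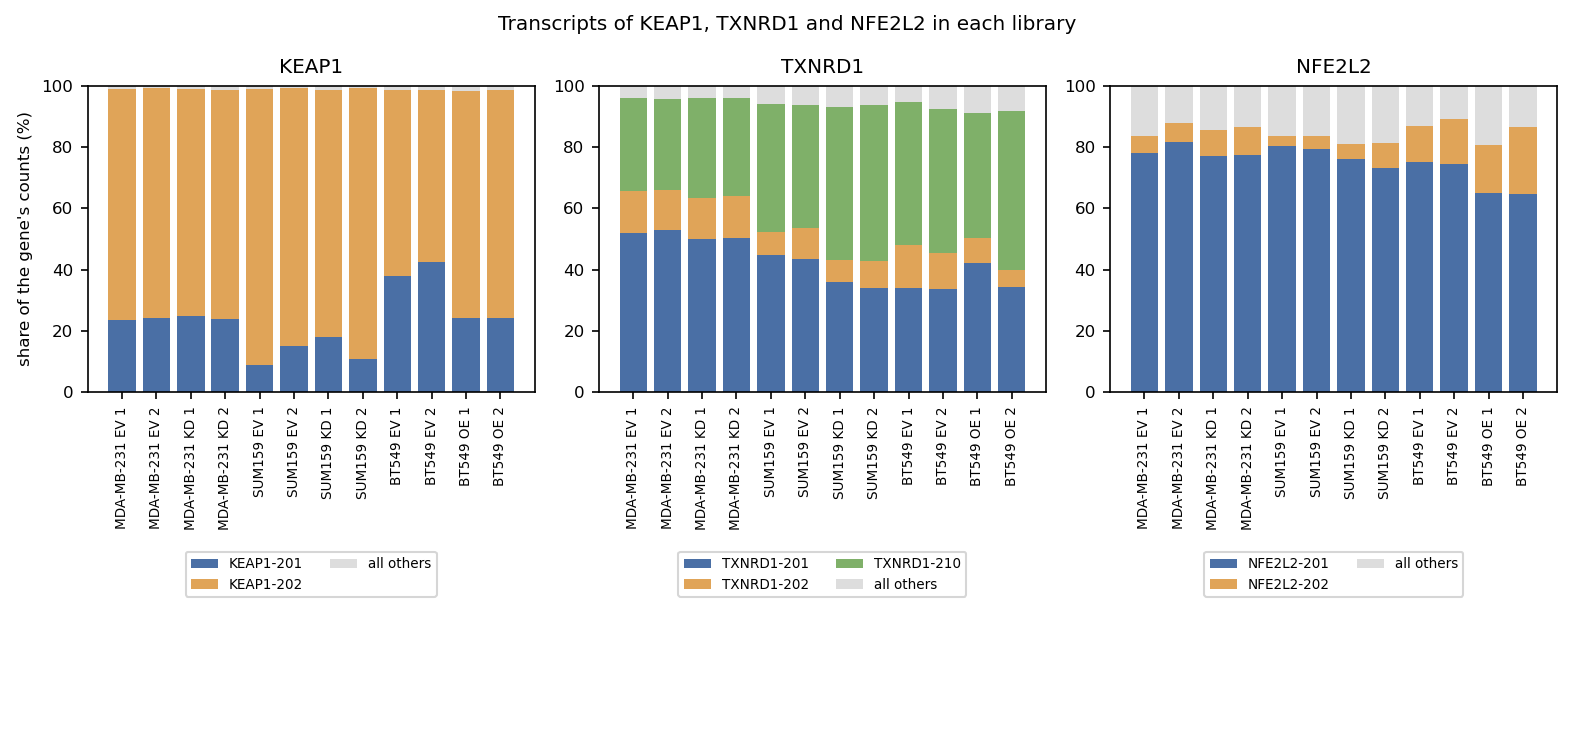
Share of each gene's counts (vertical axis, percent) held by the transcripts of KEAP1, TXNRD1 and NFE2L2 that reach 10% in any group, with all others in grey, in each of the 12 libraries. KEAP1-201 is largest in the BT549 EV libraries (37.9% and 42.3%), and TXNRD1-210 is larger in SUM159 KD (50.0% and 51.2%) than in SUM159 EV.

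Around the 9 genes, 60 of 61 further pathway genes could be tested (GPX2, a glutathione peroxidase, was too low). In MDA-MB-231 KD 23 were higher, 12 lower and 25 did not pass, with a median log2 change of 0.02. SUM159 KD was mostly lower, with 38 lower, 12 higher and 10 that did not pass and a median of -0.30. BT549 OE had 30 lower, 19 higher and 11 that did not pass, with a median of -0.15. The medians over all genes tested were 0, 0 and 0.02. All pathway counts are to be read against the shares of all genes given above.

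Among the regulators, 9 of 12 were lower in SUM159 KD (31.4% of all genes) and 9 of 12 in BT549 OE (35% of all genes). In MDA-MB-231 KD 7 of 12 were higher (21.2% of all genes). NFE2L1, a related transcription factor that controls proteasome genes, had normalized counts of 5786 and 5565 in MDA-MB-231 EV and 7683 and 7419.5 in KD (log2 change 0.41 ± 0.03, adjusted p = 5.22e-10). In SUM159 it went from 8365 and 8509 to 3028 and 3056 (-1.47 ± 0.03, adjusted p = 1.94e-20), and in BT549 from 8245 and 7990.3 in EV to 3448.5 and 3466 in OE (-1.23 ± 0.03, adjusted p = 1.28e-19). SQSTM1, the autophagy adaptor that sequesters KEAP1, rose in MDA-MB-231 KD (0.56 ± 0.03, adjusted p = 6.3e-13) and fell in SUM159 KD (-0.70 ± 0.03, adjusted p = 1.39e-15) and BT549 OE (-0.82 ± 0.03, adjusted p = 1.28e-17). RBX1, the RING subunit of the CUL3 ligase, fell in MDA-MB-231 KD (-0.37 ± 0.06, adjusted p = 2.4e-05) and rose in SUM159 KD (0.63 ± 0.05, adjusted p = 5.54e-11) and BT549 OE (0.93 ± 0.06, adjusted p = 9.7e-13). BACH1 fell in SUM159 KD from 253 and 271 to 102 and 133 (-1.15 ± 0.12, adjusted p = 1.15e-08) and in BT549 OE (-0.47 ± 0.07, adjusted p = 2.27e-06), while its change of -0.09 in MDA-MB-231 KD did not pass (adjusted p = 0.351). MAFG, a small MAF partner of NRF2, fell in BT549 OE (-0.72 ± 0.05, adjusted p = 1.02e-11) and did not pass in either KD line (0.01, adjusted p = 0.892, and -0.05, adjusted p = 0.438). NFE2L3 was at 1656 and 1754 in BT549 EV and at 1.1 and 4.5 in OE, near the floor of 3 counts, and no fold is given. It rose in MDA-MB-231 KD (0.85 ± 0.07, adjusted p = 1.12e-09).

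In SUM159 KD, where 31.4% of all genes tested were lower, all 6 genes of NADPH supply were lower. These genes feed both the glutathione and the thioredoxin system, and single ones were picked for naming after their values were seen. Examples are PGD (log2 change -0.82 ± 0.05, adjusted p = 2.24e-13), TKT (-0.70 ± 0.03, adjusted p = 2.68e-15) and ME1 (-0.65 ± 0.06, adjusted p = 2.06e-09), while TALDO1 had a change of -0.15 ± 0.03 (adjusted p = 0.000519). In MDA-MB-231 KD 2 of the 6 were higher (21.2% of all genes), among them TALDO1 (0.32 ± 0.03, adjusted p = 2.22e-08), and 4 did not pass. In BT549 OE 3 were higher (35.6% of all genes), among them TALDO1 (0.47 ± 0.04, adjusted p = 8.47e-11), and 2 lower (35% of all genes), among them TKT (-0.53 ± 0.03, adjusted p = 5.46e-13).

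In the glutathione group the widest change was that of SLC7A11, the cystine importer. Its normalized counts were 5122 and 4934 in SUM159 EV and 268 and 241 in KD, a log2 change of -4.31 ± 0.06 (adjusted p = 3.37e-24). In MDA-MB-231 they were 2805 and 3019 in EV and 2602 and 2666 in KD (-0.15 ± 0.04, adjusted p = 0.0124), and in BT549 they were 325 and 310.0 in EV and 319 and 302 in OE (-0.03, adjusted p = 0.762). The SUM159 KD libraries thus lay below all 4 BT549 libraries, and the SUM159 EV libraries above all others. MGST1, a membrane glutathione transferase, fell by a little in all 3 comparisons (-0.19, -0.16 and -0.30 in MDA-MB-231 KD, SUM159 KD and BT549 OE). GSR, which regenerates reduced glutathione, rose in BT549 OE from 3659 and 3736 to 7791 and 7844 (1.08 ± 0.03, adjusted p = 2.04e-18), with small changes of 0.18 in MDA-MB-231 KD and -0.16 in SUM159 KD that also passed.

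TXN, the thioredoxin that TXNRD1 reduces, fell with TXNRD1 in BT549 OE, from 7241 and 6985 to 3187 and 3215 (log2 change -1.15 ± 0.04, adjusted p = 1.22e-17). Its changes in the KD lines were small (-0.11 ± 0.04, adjusted p = 0.0235 in MDA-MB-231, and 0.17 ± 0.04, adjusted p = 0.000415 in SUM159). FTH1, the partner of FTL, rose in MDA-MB-231 KD (0.39 ± 0.03, adjusted p = 5.79e-10) and fell in SUM159 KD (-0.30 ± 0.03, adjusted p = 3.4e-09), as FTL did. In BT549 OE it rose (0.22 ± 0.03, adjusted p = 3.56e-07) while FTL fell. The 12 FTH1 processed copies in the table together held at most 0.15% of the FTH1 counts. ACO1, which doubles as iron regulatory protein, fell in MDA-MB-231 KD (-0.37 ± 0.06, adjusted p = 3.7e-05) and SUM159 KD (-0.60 ± 0.06, adjusted p = 2.78e-08) and rose in BT549 OE (0.34 ± 0.09, adjusted p = 0.00315). BLVRB, a biliverdin reductase, and FECH, which inserts iron into haem, rose in SUM159 KD (0.53 ± 0.05, adjusted p = 7.52e-09, and 0.41 ± 0.05, adjusted p = 3.78e-07) and in MDA-MB-231 KD (0.40 and 0.23), and fell in BT549 OE (-0.17 and -0.20), all past the threshold.

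Of 13 detoxification enzymes, 8 were lower and 2 higher in BT549 OE (35% and 35.6% of all genes, 70.6% in either direction). In SUM159 KD 6 were lower and 4 higher (31.4% and 28.6% of all genes). In MDA-MB-231 KD 2 were lower and 3 higher (16.5% and 21.2% of all genes). CBR3, a carbonyl reductase, went in BT549 OE from 3185 and 3088 normalized counts to 293 and 289 (log2 change -3.43 ± 0.08, adjusted p = 9.79e-21), and AKR1C3 from 853 and 874 to 13.3 and 9.1 (-6.25 ± 0.16, adjusted p = 3.13e-20). In the same comparison AKR1B1, an aldose reductase, rose (1.23 ± 0.03, adjusted p = 1.16e-20), as did EPHX1, an epoxide hydrolase (1.71 ± 0.05, adjusted p = 1.16e-18). In SUM159 KD, AKR1C2 fell from 3147 and 3125 to 511 and 530.2 (-2.59 ± 0.06, adjusted p = 7.5e-20). AKR1C2 and AKR1C3 belong to a family of closely similar paralogs, and how reads were divided among its members is uncertain.

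**Figure D5:**
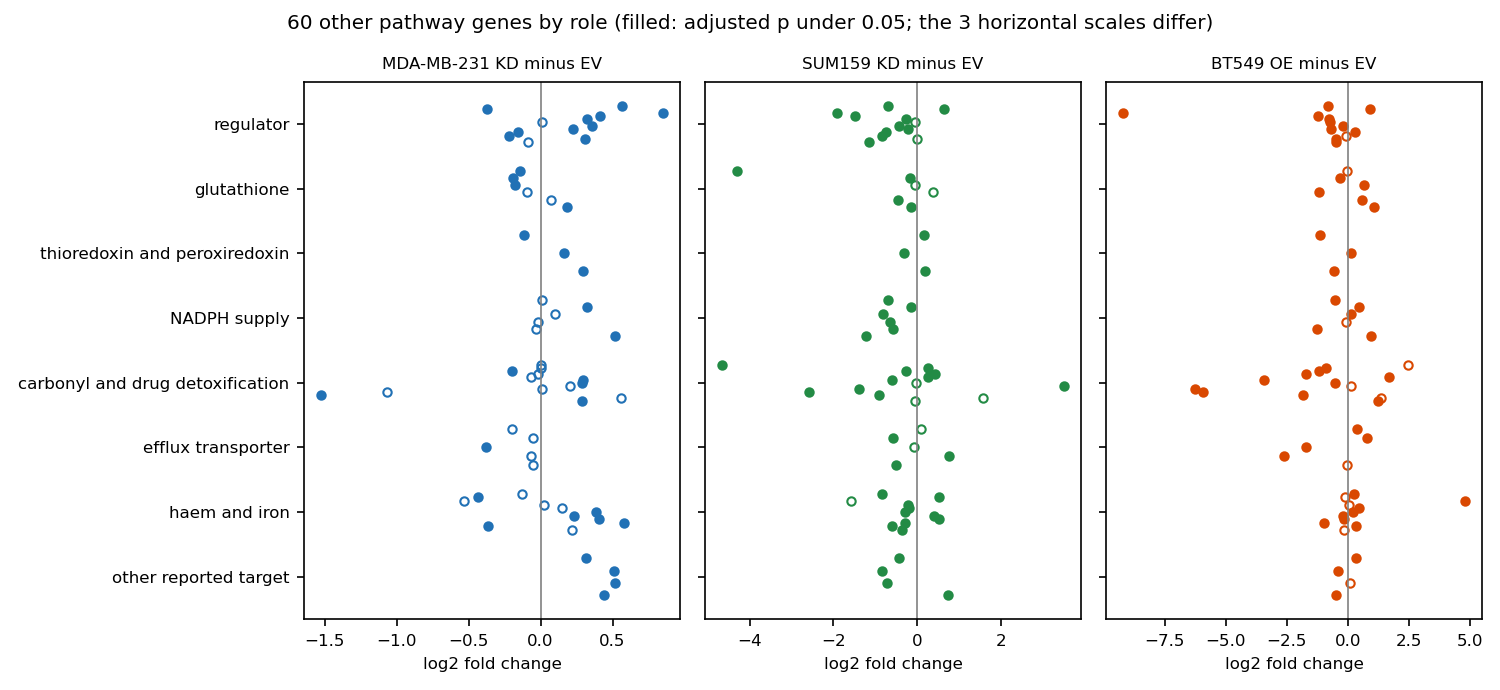
Log2 fold change (horizontal axis, a different scale in each panel) of the 60 further pathway genes by role in MDA-MB-231 KD, SUM159 KD and BT549 OE against EV. Each circle is a gene, and filled circles passed the test. All 6 NADPH supply genes lie left of 0 in SUM159 KD, where 31.4% of all genes tested were lower.

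Between MDA-MB-231 and SUM159, the KD effects on the 60 genes had 38 positive (27.7% of all genes) and 9 negative differences (23.2%). The other 13 did not pass. SLC7A11 (4.16 ± 0.08 log2 units), NFE2L1 (1.88 ± 0.05) and SQSTM1 (1.27 ± 0.04) had the positive differences of smallest p, and RBX1 (-1.00 ± 0.08), the haem transporter SLC48A1 (-0.96 ± 0.11) and the quinone reductase NQO2 (-0.44 ± 0.08) the negative ones. Between EV groups, SUM159 against MDA-MB-231 had 32 higher and 20 lower (39.2% and 36.4% of all genes). AKR1B1 (2.35 ± 0.03), AKR1C2 (8.01 ± 0.12) and the transferrin receptor TFRC (2.30 ± 0.04) led the higher ones, and MAFF, another small MAF (-2.91 ± 0.05), NFE2L3 (-6.08 ± 0.16) and the glutathione transferase GSTM3 the lower ones. BT549 against MDA-MB-231 had 32 higher and 25 lower (39.1% and 40.4% of all genes). CBR1 (2.02 ± 0.04), SQSTM1 (1.41 ± 0.03) and TFRC (2.08 ± 0.05) led the higher ones, and MGST1 (-2.56 ± 0.04), SLC7A11 (-3.20 ± 0.06) and TALDO1 (-1.52 ± 0.04) the lower ones. BT549 against SUM159 had 23 higher and 30 lower (37.7% and 40.7% of all genes). GSTM3, NFE2L3 (7.07 ± 0.14) and SQSTM1 (1.44 ± 0.03) led the higher ones, and AKR1B1 (-2.77 ± 0.03), MGST1 (-3.64 ± 0.04) and SLC7A11 (-3.98 ± 0.06) the lower ones. GSTM3 held 4 and 3 counts in the SUM159 EV libraries, near the floor of 3 counts, and no fold is given. AKR1C2 held only 14 and 12 counts in MDA-MB-231 EV, and NFE2L3 only 9 and 16 in SUM159 EV. Their folds against these groups thus rest on low counts. All differences named in this paragraph passed at adjusted p-values of 0.000103 (NQO2) or smaller.

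The genes whose levels followed NFE2L2 most closely over the 12 libraries were KLHL8 (Pearson r = 0.99), XPOT (0.98) and KIF18A (0.98), and those closest to NQO1 were PHAX (0.99), SVIL (0.99) and RPN2 (0.99), out of 12589 genes compared on log2 CPM. The 12 libraries fall into 3 cell lines and 6 groups and are not 12 independent points, so these values are a description only.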

How the data were processed

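Polysome RNA of 12 libraries (6 groups, 2 replicates) was analysed from 1 deposited table of 201932 Ensembl transcripts. Per the labels and the study's methods, the authors trimmed reads with Trimmomatic, aligned them with HISAT2 to GRCh38 and worked in Partek; the values deposited by the authors are expected counts, estimated per transcript, and the counter, annotation and strand setting are not given in the sources used here. The labels name an oligo(dT) library kit and the methods an rRNA-depletion kit, which could affect which transcripts are captured. Every transcript in the table had a count above 0 in BT549. Transcripts seen only in MDA-MB-231 or SUM159 could thus not enter the sums, TPM or shares. In the MDA-MB-231 and SUM159 columns, 5.08% of transcripts carried a question mark in place of a number and were set to 0. One such transcript belonged to HMOX1.

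Transcripts were matched to GENCODE 44 (79.65% of identifiers, 99.25% to 99.41% of counts), summed per gene symbol and rounded. The main fit used edgeR 4.0.16 (R 4.3.3, limma 3.58.1) with TMM scaling, filterByExpr (16538 genes), 6 group means, 6 residual degrees of freedom and glmQLFTest, with Benjamini-Hochberg adjustment over all genes and a threshold of 0.05. Normalized counts are TMM-scaled to the mean library. TPM were computed from GENCODE transcript lengths. Alternatives were DESeq2 1.42.0, RLE or library size scaling, 2 other filters (none, or a mean of 50 counts), a replicate block, each cell-line set alone, question-marked transcripts left out, 1 transcript per gene, and each library left out. Scripts were tested on simulated data. Named genes were all 9 members, 5 further fixed genes (TXN, SLC7A11, FTH1, BACH1, MAFG; another is not reported here), and in each comparison the 3 higher and 3 lower pathway genes of smallest p. Single NADPH supply genes and the subunit ratios were added after their values were seen. Members and lists were chosen with earlier results of these data known.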

Additional observations from a re-analysis of the deposited data

Results flagged for a closer look

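The difference between the KD effect in MDA-MB-231 and that in SUM159, tested as an interaction in edgeR's quasi-likelihood fit, passed for all 9 genes and for 4 of the 5 further genes named throughout. Values are log2 units, MDA-MB-231 minus SUM159. They were 0.88 for NFE2L2, -0.23 for KEAP1, 0.97 for NQO1, 0.19 for HMOX1 and 1.00 for FTL. They were 1.21 for GCLC, -0.35 for GCLM, 0.35 for TXNRD1 and -0.49 for SRXN1. Among the further genes they were 4.16 for SLC7A11, 1.06 for BACH1, 0.68 for FTH1 and -0.28 for TXN. Such a difference was found for 50.9% of all genes tested. The lines also differ in culture medium, so line and medium cannot be told apart here.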

How the results depend on the processing

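Of 862 alternative values of the members' log2 changes, 823 kept their direction and their side of the threshold, 29 no longer passed, 4 newly passed and 6 reversed. Counting only the most abundant transcript of each gene reversed TXNRD1 in SUM159 KD (-0.20) and between SUM159 and MDA-MB-231 EV (-0.13), and KEAP1 in BT549 EV against MDA-MB-231 EV (-0.20) and against SUM159 EV (-0.19). It left 2 members higher in SUM159 KD in place of 4, took the lower pathway genes in MDA-MB-231 KD from 12 to 7, and called 3233 genes in MDA-MB-231 KD in place of 6240. Library size as the only scaling reversed KEAP1 (-0.14) and SRXN1 (-0.15) in BT549 EV against MDA-MB-231 EV, where 4 members were then lower in place of 2. It also took the share of higher genes among those called from 56.2% to 36.7% in MDA-MB-231 KD, and from 49.1% to 38.4% in BT549 EV against MDA-MB-231 EV. The cause was not tested.

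Same-numbered replicates did not deviate together (correlations of 0.02, -0.02 and 0.00 in MDA-MB-231, SUM159 and BT549). This cannot decide whether same-numbered libraries were prepared together, and the labels do not say. With the replicate block 9, 8 and 8 members passed in MDA-MB-231 KD, SUM159 KD and BT549 OE, the same counts as without it, and 6219, 9829 and 11580 genes passed in all. Leaving out each library kept every count of members within 1.5 times its value. With 2 libraries a group, small changes such as those of KEAP1 rest on little replication.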
